A study of Mus musculus with 6 samples.

Results

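The E2F transcription factors and their DP partners were followed in haematopoietic stem cells (HSCs) of Irgm1-/- mice and of wild-type mice. All probe sets were taken that the platform's gene table assigned to exactly 1 of 10 genes, namely E2f1 to E2f8, Tfdp1 and Tfdp2. These were 21 of the 45101 probe sets of the array, and 10 of the 18193 genes with a single symbol. The knockout group (labelled Lrg47_HSC, after Lrg-47, the older name of Irgm1, an interferon-induced GTPase) held 3 arrays, and the wild-type group (WT_HSC) held 3. Mice of both groups were C57BL/6 aged 8 to 12 weeks, kept without specific pathogens and given no treatment that the labels name. HSCs were sorted from whole bone marrow as the Hoechst side population with Sca-1, c-kit and lineage staining, and their RNA was amplified in 2 rounds before hybridisation. The labels do not say which part of Irgm1 is deleted, whether marrow was pooled, or that arrays of a group came from separate animals, so p-values measure only the spread between these arrays.

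E2F proteins bind DNA next to a DP partner and switch genes of DNA replication on or off as a cell passes from G1 into S phase. In resting cells the pocket proteins of the retinoblastoma family hold E2Fs back, and phosphorylation by cyclin-dependent kinases (CDKs) releases them. E2f1, E2f2 and E2f3 are known as activators and E2f4, E2f5 and E2f6 as repressors. E2f7 and E2f8 are atypical members that bind DNA without a DP partner, repress E2F targets and are themselves transcribed under E2F control. Most HSCs of adult marrow are known to rest outside the cell cycle.

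The sequence before the start site is shown for 4 of the members whose knockout arrays lay wholly above the wild-type arrays in a tested probe set. The reason is that several E2F genes are known to be controlled by E2Fs. This choice was made with their values in view. RefSeq promoter windows (assembly GRCm38.p6, 250 bases before to 50 after a start site) were found for 8 of the 10 genes, with 12 windows in all. The 250 bases before the start follow for E2f8, E2f7, E2f2 and Tfdp1, using the 1st listed start of E2f2 and Tfdp1. Capitals mark the E2F consensus (TTTCCCGC, TTTCGCGC, TTTGCCGC or TTTGGCGC), the cell cycle homology region (CHR) core TTTGAA and the CCAAT box, each on either strand. Tfdp2 is not shown, although its probe sets 1435344_at and 1443962_at also had all knockout arrays above all wild-type arrays. The bases before its listed starts held none of these words. Those starts lie inside its RefSeq span (chr9:96196246-96323646), so the bases before that span were not examined.
E2f8 (chr7:48881597-48881846, minus strand): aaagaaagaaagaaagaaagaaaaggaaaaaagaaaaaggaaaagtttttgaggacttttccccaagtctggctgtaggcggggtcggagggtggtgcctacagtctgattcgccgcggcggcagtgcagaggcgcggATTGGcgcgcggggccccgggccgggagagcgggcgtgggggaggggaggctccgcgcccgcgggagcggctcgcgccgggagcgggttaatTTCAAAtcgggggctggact
E2f7 (chr10:110745189-110745438, plus strand): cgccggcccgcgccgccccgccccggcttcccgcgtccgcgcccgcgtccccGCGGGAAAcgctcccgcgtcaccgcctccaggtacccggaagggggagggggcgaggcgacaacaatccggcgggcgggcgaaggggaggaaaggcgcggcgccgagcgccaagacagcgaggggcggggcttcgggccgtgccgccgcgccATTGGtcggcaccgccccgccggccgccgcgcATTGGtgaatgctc
E2f2 (chr4:136172024-136172273, plus strand): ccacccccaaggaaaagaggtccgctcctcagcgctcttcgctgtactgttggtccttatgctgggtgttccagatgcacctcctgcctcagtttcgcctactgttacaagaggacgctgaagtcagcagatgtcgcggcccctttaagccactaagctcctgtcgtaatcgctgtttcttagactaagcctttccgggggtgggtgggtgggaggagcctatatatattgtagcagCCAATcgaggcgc
Tfdp1 (chr8:13338501-13338750, plus strand): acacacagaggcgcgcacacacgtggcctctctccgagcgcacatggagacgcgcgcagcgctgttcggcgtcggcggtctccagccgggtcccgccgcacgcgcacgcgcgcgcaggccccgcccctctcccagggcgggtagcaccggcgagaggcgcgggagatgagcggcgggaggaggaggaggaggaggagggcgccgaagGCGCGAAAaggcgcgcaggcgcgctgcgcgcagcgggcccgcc

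An E2F consensus word lay in the windows of 4 of 8 member genes, namely E2f2, E2f3, E2f7 and Tfdp1, against 4.97% of 8464 genes that were tested on the array and had a window. In E2f2 it lay after the start, at position 40. E2f1 had no such word, but its window lay wholly inside its RefSeq span (chr2:154559400-154569892). The windows of Tfdp2 also lay inside its span. For E2f1 and Tfdp2 the bases before the span were therefore not searched. The E2f8 start used lies inside the gene's RefSeq span (chr7:48866429-48882073). Its window held none of the 4 words, but had a TTTGAA core beginning 20 bases before the start and a CCAAT box, both on the strand opposite to the gene. TTTGAA lay in the windows of 14.4% of the tested genes and CCAAT in 42.7%. These matches describe the letters of the windows alone.

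E2f8 was the only member whose level changed past the threshold, an adjusted p under 0.05 in limma over all tested probe sets. On the log2 scale, probe set 1436186_at read 9.19, 9.15 and 9.02 in Irgm1-/- HSCs, against 7.45, 7.45 and 8.26 in wild-type HSCs. Every knockout array lay above every wild-type array, and wild-type replicate 3 lay closest to the knockout arrays. The mean was 9.12 ± 0.09 in Irgm1-/- HSCs and 7.72 ± 0.47 in wild-type HSCs (SD, n = 3 each). E2f8 rose by 1.40 (SE 0.25), a 2.64-fold difference with a limma adjusted p of 0.0462. The call was lost in 10 of 15 alternatives. Among them were the fits with any 1 array other than wild-type replicate 3 left out (limma adjusted p from 0.0745 to 0.161). Another was the fit without a filter on dim probe sets (0.105). The difference lay between 1.27 and 1.67 over the 15. Other filters, variance models and the replicate block leave it at 1.40 by construction. Only scaling, array weights and left-out arrays could move it. The other E2f8 probe set, 1444319_at, averaged 2.29 in Irgm1-/- HSCs and 2.21 in wild-type HSCs and was at or below the controls for bacterial transcripts on all 6 arrays. On the same arrays 5 of 10 tested markers of T and NK cells rose, with a mean level over the 10 of 7.29 to 8.94 in Irgm1-/- HSCs and 5.15 to 5.64 in wild-type HSCs, and their part in the E2f8 value was not tested. In such sorted bulk samples, a change in the mix of cells and a change in RNA per cell cannot be told apart.

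E2f7, the other atypical E2F, had the same ordering of the groups at a smaller size. Its only probe set read 8.83, 8.93 and 8.73 in Irgm1-/- HSCs, against 8.22, 8.29 and 8.55 in wild-type HSCs. The groups did not overlap, and wild-type replicate 3 was again the highest of its group. The difference was 0.48 (SE 0.16, limma adjusted p = 0.218) and did not pass.

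Of the 21 member probe sets, 17 lay above the array median on at least 3 arrays and were tested, covering 9 of the 10 genes. Limma called 1 of the 17 higher and 0 lower, beside 0.664% called higher and 0.722% called lower among all 22580 tested. At an unadjusted p under 0.05 there were 5 higher and 1 lower, beside 16.4% of all tested probe sets. The knockout arrays lay wholly above the wild-type arrays in 6 member probe sets and wholly below them in 2, beside 11.5% and 11% of all tested. The median difference was 0.19 over the 17, against 0.01 over all tested.

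**Figure D1:**
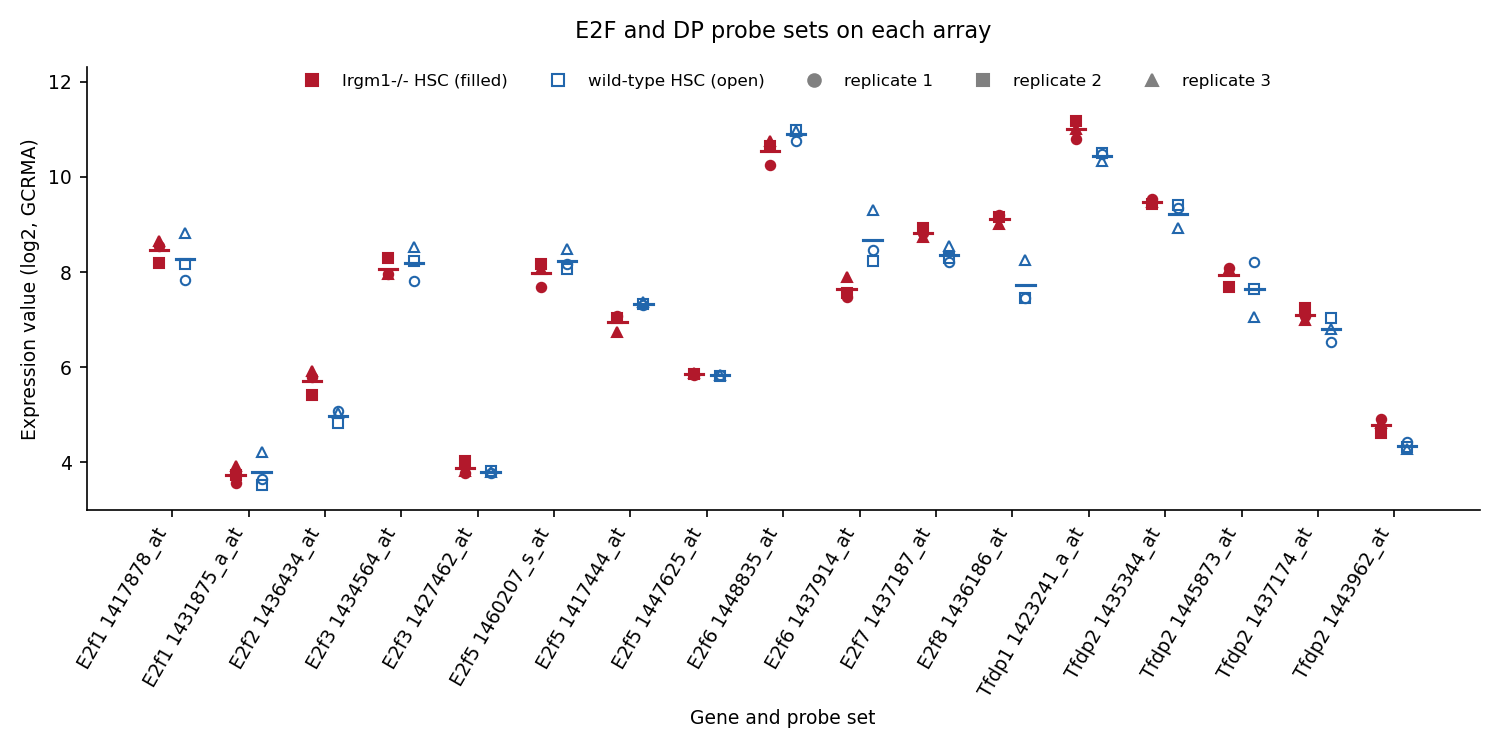
Log2 expression (y axis) of the 17 tested E2F and DP probe sets (x axis) on each array, with Irgm1-/- arrays filled and left of the open wild-type arrays. Horizontal bars are group means, and marker shapes are replicate numbers. The groups separate widest in E2f8, where the mean is 9.12 in Irgm1-/- and 7.72 in wild-type HSCs, and lie in reverse order in E2f6 1437914_at.

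Among the activators, E2f2 separated the groups and E2f1 and E2f3 did not. E2f2, known in mice for its control of T cell proliferation, read 5.79, 5.42 and 5.93 in Irgm1-/- HSCs, against 5.09, 4.82 and 5.04 in wild-type HSCs by probe set 1436434_at. The lowest knockout array lay above the highest wild-type array. The difference was 0.73 (SE 0.18, limma adjusted p = 0.121) and did not pass, with a range of 0.62 to 0.88 over its alternatives. The other E2f2 probe set, 1455790_at, was too dim to be tested (mean 3.51 in Irgm1-/- HSCs and 3.44 in wild-type HSCs).

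E2f1, the founding activator and a trigger of both S phase and apoptosis, read 8.54, 8.19 and 8.66 in Irgm1-/- HSCs, against 7.84, 8.18 and 8.82 in wild-type HSCs by its brightest probe set, 1417878_at. The groups overlapped, and the highest value of all belonged to wild-type replicate 3. The difference was 0.19 (SE 0.27), with a 95% interval from −0.45 to 0.82 and a limma adjusted p of 0.783. A 2nd probe set, 1431875_a_at, differed by −0.06 (SE 0.19). It was dim, with a mean of 3.74 in Irgm1-/- HSCs and 3.80 in wild-type HSCs, close to the array medians. The 3rd, 1447840_x_at, was at or below the bacterial controls on all 6 arrays and was not tested.

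E2f3, an activator made as a longer and a shorter protein from separate starts, read 7.96, 8.29 and 7.95 in Irgm1-/- HSCs, against 7.81, 8.23 and 8.52 in wild-type HSCs by probe set 1434564_at. The groups overlapped almost completely. The difference was −0.12 (SE 0.23), with a 95% interval from −0.64 to 0.41. The dimmer probe set 1427462_at differed by 0.08 (SE 0.11).

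Among the repressors E2f4, E2f5 and E2f6, no tested probe set passed, and most differences were negative. E2f6 represses without a pocket protein, through a Polycomb-type complex. Its probe set 1437914_at read 7.47, 7.57 and 7.89 in Irgm1-/- HSCs, against 8.46, 8.24 and 9.31 in wild-type HSCs. All knockout arrays lay below all wild-type arrays, and wild-type replicate 3 was the highest. The difference of −1.03 (SE 0.29, limma adjusted p = 0.16) did not pass. It was −0.71 without wild-type replicate 3. The brighter E2f6 probe set, 1448835_at, read 10.26, 10.64 and 10.75 in Irgm1-/- HSCs, against 10.75, 10.98 and 10.97 in wild-type HSCs. There the groups overlapped slightly, at 10.75, and the difference was −0.35 (SE 0.16, limma adjusted p = 0.345).

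E2f5, which acts with the pocket proteins p107 and p130, had 3 tested probe sets. Probe set 1417444_at read 7.08, 7.03 and 6.74 in Irgm1-/- HSCs, against 7.31, 7.34 and 7.37 in wild-type HSCs, with no overlap. The difference was −0.39 (SE 0.17, limma adjusted p = 0.322). Probe set 1460207_s_at, of a type that may match related transcripts, differed by −0.26 (SE 0.20), and 1447625_at by 0.02 (SE 0.15). E2f4, commonly the main E2F of resting cells, had a single probe set that read 1.53 to 1.68 on the 6 arrays. This was at or below the bacterial controls on every array, so the array gave no usable value for E2f4.

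**Figure D2:**
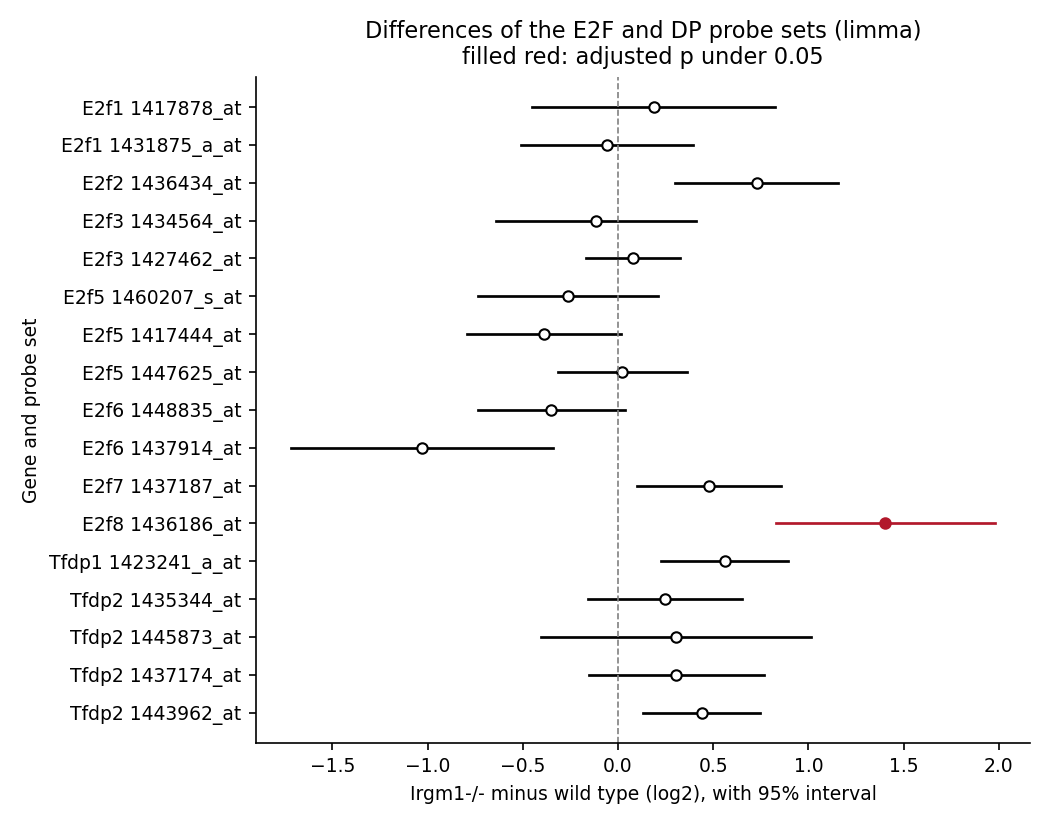
Log2 difference, Irgm1-/- minus wild type (x axis), of the 17 tested E2F and DP probe sets (y axis), with 95% intervals from limma. E2f8 at 1.40 is the only one with an adjusted p under 0.05, and E2f6 1437914_at lies lowest, at −1.03.

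The dimerisation partners had positive differences, none past the threshold. Tfdp1, which encodes DP1, read 10.80, 11.18 and 11.01 in Irgm1-/- HSCs, against 10.48, 10.50 and 10.33 in wild-type HSCs. The groups did not overlap. The difference was 0.56 (SE 0.14, limma adjusted p = 0.125), with a range of 0.47 to 0.66 over the alternatives. Tfdp2, which encodes DP2, had 4 tested probe sets with differences from 0.25 to 0.44, all positive. The clearest of them, 1443962_at, read 4.91, 4.62 and 4.83 in Irgm1-/- HSCs, against 4.44, 4.32 and 4.28 in wild-type HSCs (difference 0.44, SE 0.13, limma adjusted p = 0.177). Of the other 3, 1 separated the groups and 2 overlapped.

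The pattern of E2f8 over the 6 arrays was most like that of 5 named genes outside the family, by Pearson correlation. These were Oxnad1 (r = 0.997), the G1 kinase Cdk6 (0.995), the ribonucleotide reductase subunit Rrm2 by probe set 1448226_at (0.994), the mitochondrial complex IV assembly gene Coa8 (0.992) and the recombination helicase Rad54l (0.992). The 6 arrays form 2 groups, so these values largely describe the step between them together with the intermediate level of wild-type replicate 3. Cdk6, which phosphorylates the pocket proteins, read 11.84, 11.62 and 11.62 in Irgm1-/- HSCs, against 10.44, 10.37 and 11.05 in wild-type HSCs. Its difference of 1.07 (SE 0.20, limma adjusted p = 0.0529) did not pass.

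Among 46 tested G1/S genes known to be E2F targets, limma called 11 higher in Irgm1-/- HSCs and 0 lower, leaving 35 without a call. They come from a list of 50 such genes, each taken by its brightest tested probe set. Among all 10374 genes tested this way, limma called 1.08% higher and 0.954% lower. At an unadjusted p under 0.05, 35 of the 46 had positive differences and 0 negative ones, beside 8.51% and 10% of all genes. The knockout arrays lay wholly above the wild-type arrays for 33 of the 46, beside 12.8% of all genes. The median difference of the list was 0.88, against 0.00 over all genes. The list was chosen with the rise of replication genes in these arrays already known, so its direction is not independent evidence. On the same arrays 5 of 10 tested T and NK markers rose and 0 fell, and 2 of 7 megakaryocyte markers rose and 1 fell. Gp1bb, among the megakaryocyte markers that rose, lay above the array median on the knockout arrays alone. Their part was not tested.

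The 5 targets with the smallest p had knockout values wholly above the wild-type values. Cyclin A2 (Ccna2), which drives S phase with its CDK, read 8.84, 8.98 and 8.98 in Irgm1-/- HSCs, against 7.03, 6.83 and 7.10 in wild-type HSCs (difference 1.95, SE 0.16, limma adjusted p = 0.00347). Thymidine kinase Tk1 averaged 6.97 ± 0.13 in Irgm1-/- HSCs and 5.27 ± 0.20 in wild-type HSCs. Rrm2 by probe set 1434437_x_at averaged 11.25 ± 0.11 in Irgm1-/- HSCs and 9.46 ± 0.45 in wild-type HSCs. The helicase subunit Gins1 averaged 8.35 ± 0.26 in Irgm1-/- HSCs and 6.77 ± 0.25 in wild-type HSCs, and the maintenance methyltransferase Dnmt1 averaged 12.02 ± 0.22 in Irgm1-/- HSCs and 11.02 ± 0.07 in wild-type HSCs (SD, n = 3 each). All 4 passed, with differences of 1.70 (SE 0.18), 1.79 (SE 0.23), 1.58 (SE 0.22) and 0.998 (SE 0.14) and limma adjusted p between 0.009 and 0.0261. These values are of the brightest tested probe set of each gene. Limma called 2 of 3 tested probe sets of Rrm2, 1 of 2 of Gins1 and 1 of 3 of Dnmt1. For Ccna2 it called 2 of 2, and for Tk1 it called 1 of 1. At the other end, the clamp gene Pcna was the only target with a negative difference, −0.05 (SE 0.21), and is named after its values were seen.

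The calls depended on single arrays. Without knockout replicate 1, 2 of the 11 kept the call, without knockout replicate 2 it was 3, and without knockout replicate 3 it was 6. Without wild-type replicate 1 or wild-type replicate 2 it was 1 each, and without wild-type replicate 3 it was 7. Without a filter on dim probe sets 3 kept it. The median difference of the list stayed between 0.79 and 0.90 over these fits, and at least 44 of 46 differences were positive.

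**Figure D3:**
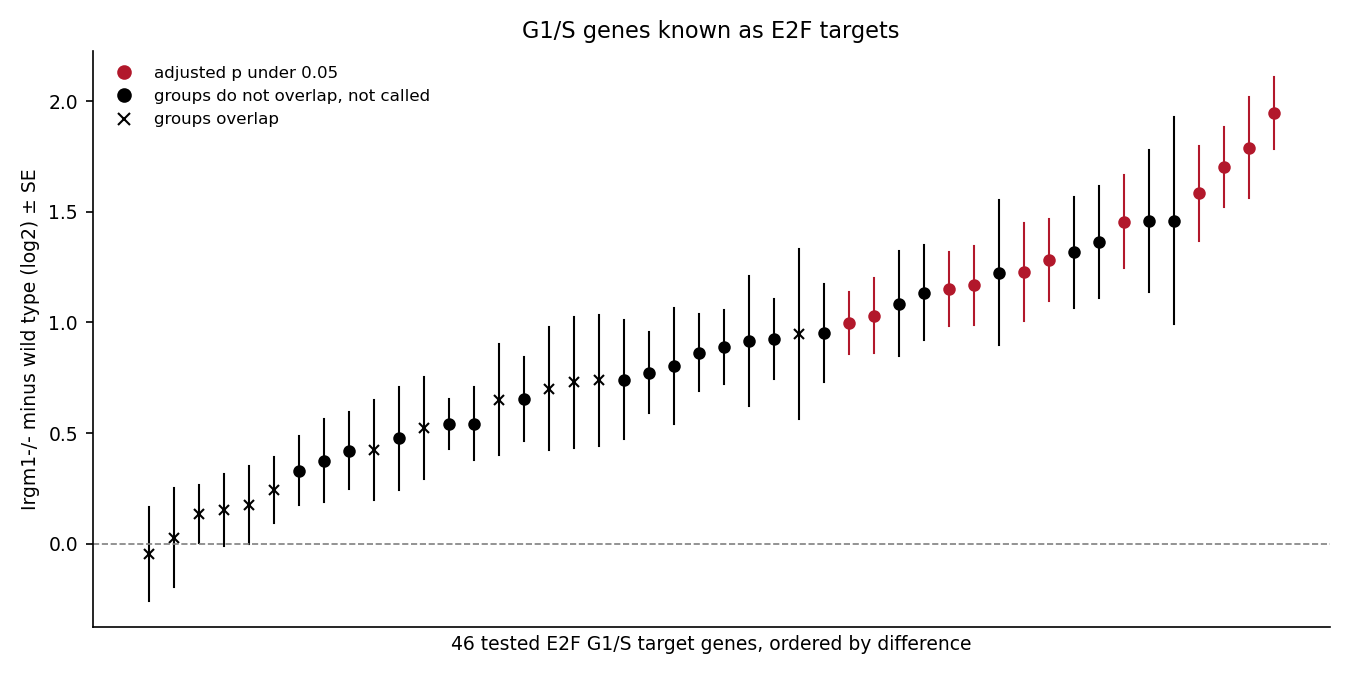
Log2 difference, Irgm1-/- minus wild type, with SE (y axis) for the 46 tested G1/S genes known as E2F targets, in order of size (x axis). The 11 red points passed, 33 genes drawn as circles had no overlap between the groups, and the differences run from −0.05 to 1.95.

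An E2F consensus word was found in the windows of 18 of 38 tested targets that had a window, against 4.97% of all tested genes with one. Among the 8 called targets with a window it was found in 3, which are shown here for 1 site each with 10 bases to either side. In Mcm5 the word shown overlaps another on the opposite strand, and the capitals mark the first word alone.
Mcm6 (chr1:128359735-128359762, minus strand): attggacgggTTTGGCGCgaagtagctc
Mcm5 (chr8:75109346-75109373, plus strand): cgccaagaacTTTCGCGCcaaaacgtcc
Dnmt1 (chr9:20952825-20952852, minus strand): gtttccgcgcGCGCGAAAaagccggggt

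Regulators of the family gave no call. Among 39 tested genes of the pocket proteins and their DREAM complex, the cyclin D kinases and CDK inhibitors, factors of E2F stability and partners of E2F6, limma called 0 higher and 0 lower, beside 2.03% of all genes called. At an unadjusted p under 0.05, 6 of the 39 had positive differences and 2 negative ones, beside 8.51% and 10% of all genes. The pocket protein gene Rbl1 (p107), itself an E2F target, read 9.71, 9.81 and 9.77 in Irgm1-/- HSCs, against 8.35, 8.90 and 9.56 in wild-type HSCs. The groups did not overlap, wild-type replicate 3 lay nearest the knockout arrays, and the difference of 0.83 (SE 0.29, limma adjusted p = 0.221) did not pass. Its relative Rbl2 (p130), typical of resting cells, differed by −0.23 (SE 0.19). Mybl2, which joins the complex as cells cycle, differed by 0.45 (SE 0.13, limma adjusted p = 0.156).

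The CDK inhibitor Cdkn1c (p57), a brake of stem cell cycling, read 7.68, 7.71 and 7.33 in Irgm1-/- HSCs, against 8.20, 8.24 and 8.19 in wild-type HSCs. The groups did not overlap and the difference of −0.63 (SE 0.17, limma adjusted p = 0.143) did not pass. Cdkn2d (p19) differed by −0.46 (SE 0.20), Cdk4 by 0.44 (SE 0.12) and Cdkn1a (p21) by 0.75 (SE 0.32), none of them called. Among factors of E2F turnover, Cdc20, which activates the mitotic ubiquitin ligase, differed by 0.80 (SE 0.15, limma adjusted p = 0.0587) and Skp2, a ubiquitin ligase subunit that targets E2f1, by 0.66 (SE 0.20). The 10 tested partners of E2F6 stayed between −0.34 and 0.28, and all overlapped between the groups. The 5 measured germline genes that E2F6 is known to silence lay at or below the bacterial controls on all arrays of both groups. Of 4 tested apoptosis genes under E2F control, 1 rose, beside 1.08% of all genes. It was Pmaip1 (Noxa), with 7.09, 6.50 and 6.31 in Irgm1-/- HSCs, against 5.16, 4.86 and 5.44 in wild-type HSCs (difference 1.48, SE 0.26, limma adjusted p = 0.0454). The other 3 were not called, with differences of 0.65 (SE 0.20) for Apaf1, −0.19 (SE 0.21) for Bcl2l11 and 0.18 (SE 0.23) for Bbc3.

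The array medians lay between 3.67 and 3.73. All 8 HSC markers measured were above the bacterial controls in both groups, with a mean level of 10.41 to 10.68 in Irgm1-/- HSCs and 10.65 to 10.76 in wild-type HSCs. None of the 8 was called, and 7 of the 8 differences were negative, with a median of −0.35. The knockout arrays lay wholly below the wild-type arrays for Gata2 (−0.83), Kit (−0.82), Procr (−0.37) and Hlf (−0.48), and wholly above them for Slamf1 (1.43). Of all 10374 genes tested, 1282 lay wholly below and 1328 wholly above. Irgm1 itself overlapped between the groups (difference −0.41, SE 0.25, limma adjusted p = 0.475), so the groups are named by their labels. Of 10 tested markers of T and NK cells 5 rose, and their mean level was 7.44, 7.29 and 8.94 on the knockout arrays against 5.63, 5.15 and 5.64 on the wild-type arrays. Of 15 on the array, 2 lay at or below the bacterial controls on all knockout arrays and 5 on all wild-type arrays. Gzmb, among those that rose, read only 3.87, 3.00 and 3.64 on the wild-type arrays and was at or below the controls on 1 array. Of 7 megakaryocyte markers 2 rose and 1 fell, and their mean level was 7.66 to 7.92 on the knockout arrays against 7.06 to 7.13 on the wild-type arrays. The knockout arrays lay wholly above the wild-type arrays for 5 of the 7 and wholly below them for 1. Selp rose by 1.90, with 3 of 3 tested probe sets called, and Mmrn1 fell (−2.03). Gp1bb, among those that rose, read 2.93, 3.06 and 3.44 on the wild-type arrays, under the array medians. It was therefore tested only through its knockout arrays, and it lay at or below the bacterial controls on 2 arrays. Without knockout replicate 3, where T and NK markers were highest, E2f8 differed by 1.46 and no longer passed (limma adjusted p = 0.0745), and the targets differed by a median of 0.88. The part of these markers in the results was not tested. Of 8 erythroid markers 4 were at or below the bacterial controls in both groups, among them Klf1, Alas2 and Rhd, which stayed between 1.59 and 2.07 on all arrays. Of the 4 tested erythroid markers 0 were called and 3 differences were positive. Tfrc, the transferrin receptor, read 9.66, 9.93 and 9.95 in Irgm1-/- HSCs, against 9.73, 9.37 and 9.67 in wild-type HSCs, and the groups overlapped (difference 0.25, SE 0.16). Epor, the erythropoietin receptor, read 5.69, 5.03 and 5.56 in Irgm1-/- HSCs, against 5.13, 5.09 and 4.59 in wild-type HSCs, also with overlap (difference 0.49, SE 0.23, limma adjusted p = 0.349). The 5' probe set of 18S ribosomal RNA, a control for residual ribosomal RNA, read 12.05, 12.47 and 11.20 on the knockout arrays against 11.15, 10.05 and 9.31 on the wild-type arrays. The groups lay closer by the 3' probe set (9.51, 9.42 and 9.84 against 9.40, 9.34 and 8.57). They overlapped by the middle probe set (7.89, 8.14 and 8.08 against 7.92, 7.97 and 7.36). The part of ribosomal RNA was not tested. The 3' probe set of actin exceeded the 5' probe set by 2.86, 2.81 and 3.56 on the knockout arrays. On the wild-type arrays it did so by 3.16, 3.16 and 2.57. The highest and lowest of these values belonged to knockout replicate 3 and wild-type replicate 3. The part of RNA quality was not tested.

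**Figure D4:**
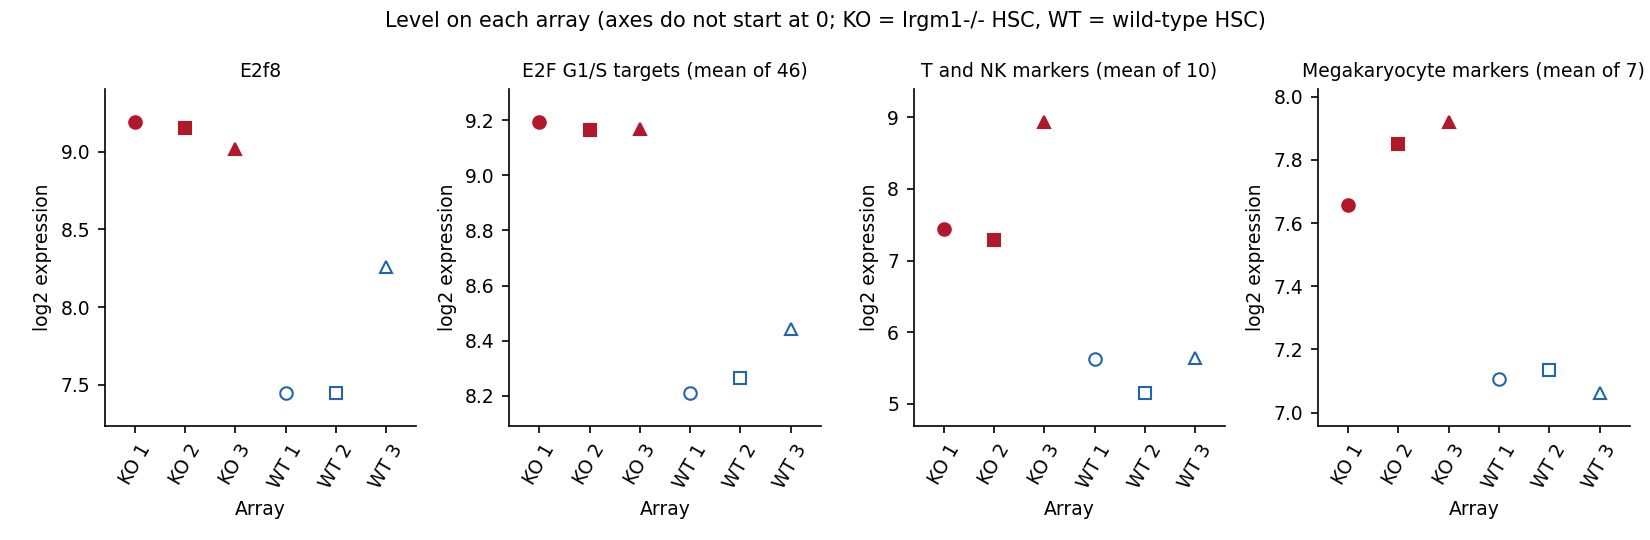
Log2 level (y axes, not starting at 0) on each array (x axes, Irgm1-/- left of wild type) of E2f8 and of the mean over the E2F G1/S targets, the T and NK markers and the megakaryocyte markers. The target mean is 9.16 to 9.19 on knockout arrays and 8.21 to 8.44 on wild-type arrays, and wild-type replicate 3 is the highest wild-type array for E2f8 (8.26) and for the targets.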

How the data were processed

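Expression was measured on 6 Affymetrix arrays, 3 of Irgm1-/- and 3 of wild-type HSCs. The authors deposited 1 log2 value for each probe set and array, and the submitters' processing notes name GCRMA, a method that corrects background, normalises arrays and combines the probes of a set. No version or setting of it is stated in the sources used here, and the range of the values showed the log2 scale. No further scaling was applied.

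Probe sets above the array median (50th percentile) on at least 3 of 6 arrays were tested in limma 3.58.1 (R 4.3.3) with lmFit and eBayes, an intensity trend, 2-sided, with Benjamini-Hochberg adjustment over all 22580 and a threshold of 0.05. All p-values of single genes come from this fit, which was tested on simulated data. Dim probe sets are compared with the highest bacterial control (3.00 to 3.18). Platform annotation gave 1 symbol to 34958 probe sets. List genes are represented by the tested probe set with the highest mean. Named were every member probe set, up to 5 genes of each list by smallest p, the 5 genes most like E2f8, Irgm1 and, after their values were seen, Pcna, the other tested apoptosis genes, the named HSC and erythroid markers and the genes whose sites are printed. Members and lists were chosen with earlier results of these data known. Genes of the lists without a single-symbol probe set were not analysed here. The number of arrays limits precision. Same-numbered arrays did not deviate together from their group means (correlations −0.11, −0.02 and −0.28), and the main fit used no pairing. With 3 arrays in each group, these values cannot show whether same-numbered arrays were handled together.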

Additional observations from a re-analysis of the deposited data

How the results depend on the processing

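Alternatives were other filters, scalings, variance models, array weights, a replicate block, another threshold, a median over a gene's probe sets and leaving out each array. E2f8 was not called with no filter on dim probe sets (0 member probe sets), a 25th-percentile filter (0), quantile normalization (0, adjusted p = 0.0527), median centring (0, 0.0596) or the replicate block (0, 0.143). With 1 array left out the number of member probe sets called higher ranged from 0 to 1. The called G1/S targets, 11 in the main fit, numbered 3 with no filter and 6 with the filter at the 25th percentile. With the filter at the 70th percentile they were 16 of 40 tested, and with the median over a gene's probe sets 16. They were 21 with array weights, 2 with the replicate block, 20 at an adjusted p under 0.10, and 1 to 8 with 1 array left out. Called regulators numbered 2 with the filter at the 70th percentile, 3 with array weights, 2 at an adjusted p under 0.10, 1 with the median over probe sets and 0 to 1 with 1 array left out, against 0. The cause of these changes was not tested, beyond the fewer arrays or other number of tests. Over all probe sets the calls, 313 in the main fit, numbered 103 with no filter and 126 with the filter at the 25th percentile. With the filter at the 70th percentile they were 355 of 13735 tested. They were 864 with array weights, 68 with the replicate block, 629 at 0.10, and 45 to 267 with 1 array left out. Small differences turned sign in a few fits, none of them called. With 1 array left out, E2f1 1417878_at ranged from −0.032 to 0.457, E2f1 1431875_a_at from −0.194 to 0.151 and E2f3 1434564_at from −0.305 to 0.050. With array weights E2f1 1431875_a_at was 0.046, and with median centring E2f5 1447625_at was −0.0031. The other 13 tested member probe sets kept their sign in every fit that tested them. Signal over background limits the probe sets of E2f4, E2f1 (1447840_x_at) and E2f8 (1444319_at) that lay at or below the bacterial controls, whereas E2f2 1455790_at lay above them but under the array median.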
